A study of Macaca mulatta with 95 samples.

Results

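CDKN1A, GADD45A, PMAIP1, PHLDA3, GDF15 and CHAC1 are 6 of the 16049 genes measured in 95 single cells of preimplantation rhesus macaque (Macaca mulatta) embryos. They were chosen by name as known p53 targets and stress response genes, after an earlier look at the same values had listed all 6 among the genes higher in late morula than in 16-cell embryos. PHLDA3 had also been listed as lower in outer than in inner early and middle blastocyst cells. The differences between late morula and 16-cell cells therefore chose these genes: they are given as a description, and nothing is read from them.

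All embryos came from oocytes of hormone-stimulated cycling females, were fertilised and grown in culture, and shared the same handling: removal of the zona with pronase, a fluorescent membrane dye that marks outer cells, and separation into single cells with trypsin. No genotype, treatment or age of the females is given as a difference between groups. The 5 cells of the 16-cell stage (day 3) were 3 outer and 2 inner, and the 10 early morula (day 4) and 10 late morula (day 4.5) cells were 5 outer and 5 inner each. The 16 early blastocyst cells (day 5) were 6 outer and 10 inner, the 17 middle blastocyst cells (day 5.5) were 5 outer and 12 inner, and the 19 late blastocyst (day 6) and 18 hatched blastocyst (day 7) cells were all inner. Each title also carries a letter (A, B, D, G or H) that no source used here explains. The 16-cell cells are all B, the early morula cells all H, the late morula cells all D, the outer early blastocyst cells all A and the outer middle blastocyst cells all B, so stage and letter cannot be told apart there. Cells are named below by letter and number, with their position, since an outer and an inner cell can carry the same number.

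No label names the embryo, female or culture of a cell. Each group therefore counts as 1 sample, no test between groups was run, and every SD below is the spread between cells of a group. A difference between groups is given as the log2 ratio of 2 group means, each with 1 RPKM added (RPKM, a read count scaled by transcript length and library size, is corrected for length, so levels of different genes can be set side by side; the unit is not named with the values and was read from them). This added amount understates differences of genes at low level. A gene counts as measured where its mean is at least 5 RPKM on either side, and is called higher or lower where its mean differs by at least 2-fold. Beside counts of the 6 genes and of listed genes stands the share of all measured genes called in the same direction. Where the cells of 2 groups do not overlap in a gene, the share of all measured genes that do not overlap in that direction is given in the same way.

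p53 is a transcription factor that is stabilised by DNA damage and other stresses and switches on genes that halt the cell cycle, promote repair or start cell death. CDKN1A (p21), an inhibitor of cyclin-dependent kinases, is its best known target. The integrated stress response runs in parallel: phosphorylation of the initiation factor eIF2 lowers translation in general and raises that of ATF4, a transcription factor whose targets include CHAC1, TRIB3, ASNS and DDIT3. GDF15 is induced by both routes, and in early embryos cell cycle checkpoints are still maturing.

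The deposited values of a cell summed to between 557059 and 1000594. In each of the 6 genes the low values were whole multiples of the value of 1 read, to within 0.05 of a read, and 5 RPKM stood for at least 21.2 reads in the shallowest cell. The relative depth recovered in this way (1 for the median cell) had a median of 0.542 in late morula cells and between 0.969 and 1.05 in the other stages. Early blastocyst and late morula cells had the fewest genes at 1 RPKM or above (medians of 3658.5 and 3719.5) and early morula cells the most (6643). The hatched blastocyst cells of letter G are labelled inner, but epiblast markers were low in them: NANOG had a mean of 0.457 ± 0.448 RPKM (SD, 9 cells) and POU5F1 of 2.40 ± 3.37, against 628 ± 251 and 3039 ± 787 in the 9 cells of letter H. The trophectoderm marker GATA3 had a mean of 364 ± 216 in letter G and 1.09 ± 3.16 in letter H. Hatched blastocyst comparisons are therefore given by letter, while means of the whole stage pool both letters.

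CDKN1A stood apart by how few cells held it. It was at 0 in 45 of the 95 cells and reached 5 RPKM in 20, of which 9 were late morula cells. In 16-cell embryos it was at 0 in 4 cells and at 0.0537 RPKM in the outer cell B-02. In early morula the outer cells H-02 to H-06 had 12.8, 0.353, 0.0616, 1.88 and 14.0 RPKM, and the inner cells H-02, H-03, H-04, H-05 and H-08 had 0, 0, 11.6, 17.8 and 0.0269. High and near-zero cells thus occurred at both positions.

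Late morula held the highest CDKN1A levels of the 95 cells. Its outer cells D-01, D-03, D-05, D-06 and D-10 had 6.09, 1.66, 411, 293 and 540.3 RPKM. Its inner cells D-01, D-04, D-07, D-08 and D-10 had 86.1, 65.2, 27.7, 372 and 327. The 2 lowest of the 10 were outer cells, and D-01 and D-03 overlapped the early morula range. The stage mean was 213 ± 197 RPKM (10 cells), against 5.86 ± 7.25 in early morula.

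After the morula CDKN1A was near 0 in most cells. All 6 outer early blastocyst cells were at 0, and the 5 outer middle blastocyst cells had at most 0.186 RPKM. Only 7 of 70 blastocyst cells reached 5 RPKM: 1 early blastocyst cell (8.61 in inner A-07), 3 middle blastocyst cells (106 in inner B-02, 63.0 in inner H-03 and 20.1 in inner H-10) and 3 hatched cells of letter H, the highest at 109. None of the 31 cells of letter G, from 4 blastocyst stages, reached 5 RPKM, which allows a share of up to 9.68% (limit for a count of 0, taken here and below as 3 cells of the total, counting error only).

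GADD45A encodes a small protein that binds PCNA and cell cycle kinases and takes part in DNA repair and demethylation. It reached 5 RPKM in 4 of the 5 cells of the 16-cell stage. There the outer cells B-01, B-02 and B-09 had 9.80, 82.1 and 73.3 RPKM and the inner cells B-01 and B-02 had 1.76 and 13.0. Early morula cells ranged from 1.79 to 89.0 (mean 44.9 ± 29.9) and overlapped the 16-cell range almost entirely.

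All 10 late morula cells had GADD45A, from 34.2 RPKM in inner D-07 to 381 in outer D-05. The outer cells D-01, D-03, D-05, D-06 and D-10 had 219, 146, 381, 223 and 218, and the inner cells D-01, D-04, D-07, D-08 and D-10 had 114, 244, 34.2, 89.4 and 156. The outer cells had the higher mean, but the ranges overlapped. In blastocysts the cells split into high and near-zero ones: in outer early blastocyst 4 of 6 cells were at 0 while A-09 had 34.9 and A-06 had 248. The highest level of the series, 428 RPKM, was in the late blastocyst cell G-03, in a group of 15 letter G cells whose median was 0.465. That group mixed cells with high sums of epiblast, hypoblast or trophectoderm markers.

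PMAIP1 (NOXA), a BH3-only protein that binds and neutralises MCL1, was the most widely detected: 4 of 95 cells were at 0 and 56 reached 5 RPKM. Its 16-cell values were 1.70, 2.06 and 7.23 RPKM in outer B-01, B-02 and B-09 and 3.75 and 1.84 in inner B-01 and B-02. Its early morula mean was 44.0 ± 46.2 and its late morula mean 21.5 ± 20.8, so that PMAIP1 was the only one of the 6 genes with a lower mean in late than in early morula. The highest stage means came last, 85.7 ± 125 RPKM in late and 82.6 ± 111 in hatched blastocyst, with SDs above the means. The hatched mean pools 2 unlike letters, with 13.0 ± 16.3 in letter G and 152 ± 122 in letter H.

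PHLDA3, a PH-domain protein that competes with AKT for membrane lipids and lowers its activity, was at or near 0 at the 16-cell stage, with 0.150 RPKM in outer B-02 and 0 in the other 4 cells. In early morula the outer cells H-02 to H-06 had 23.0, 10.6, 33.0, 81.1 and 12.2, and the inner cells H-02, H-03, H-04, H-05 and H-08 had 13.1, 0.0334, 80.6, 0 and 0.600. All outer cells were thus above 10 RPKM, while 3 of the inner cells were under 1.

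All 10 late morula cells had PHLDA3 above 10 RPKM. The outer cells D-01, D-03, D-05, D-06 and D-10 had 183, 496, 11.6, 65.1 and 549.8, and the inner cells D-01, D-04, D-07, D-08 and D-10 had 321, 244, 648, 286 and 599. The lowest inner cell had 244, and 3 of the 5 outer cells lay under it. The stage mean was 340.2 ± 224 RPKM, and no other stage mean of this gene passed 69.5 ± 121 (middle blastocyst, 17 cells).

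GDF15, a secreted ligand of the TGF-beta superfamily and a widely used marker of cell stress, reached the highest single value of the 6 genes. At the 16-cell stage it had 0.239 and 0.0827 RPKM in outer B-02 and B-09 and 0 elsewhere. Early morula cells had 90.6, 19.4, 142, 119 and 7.84 (outer H-02 to H-06) and 12.4, 16.3, 102, 121 and 4.06 (inner H-02, H-03, H-04, H-05 and H-08). Every early morula cell was above every 16-cell cell.

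GDF15 varied widely among late morula cells. The outer cells D-01, D-03, D-05, D-06 and D-10 had 2.57, 741, 2083, 68.5 and 134 RPKM, and the inner cells D-01, D-04, D-07, D-08 and D-10 had 22.6, 243, 345, 400 and 12.9. The lowest and the highest were both outer cells, and 4 of the 10 lay within the early morula range. In blastocysts 34 of 70 cells reached 5 RPKM, with stage means between 13.0 ± 19.7 (hatched) and 38.9 ± 72.1 (middle).

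CHAC1, a gamma-glutamyl cyclotransferase that breaks down glutathione and is a target of ATF4, was restricted to fewer stages than the others. It was at 0 in 49 of 95 cells, and 18 reached 5 RPKM: 6 early morula, 5 late morula and 7 hatched blastocyst cells. None of the 52 early, middle and late blastocyst cells reached 5 RPKM, which allows a share of up to 5.77%, and their highest value was 0.504. The 5 cells of the 16-cell stage had at most 0.257 RPKM.

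**Figure D1:**
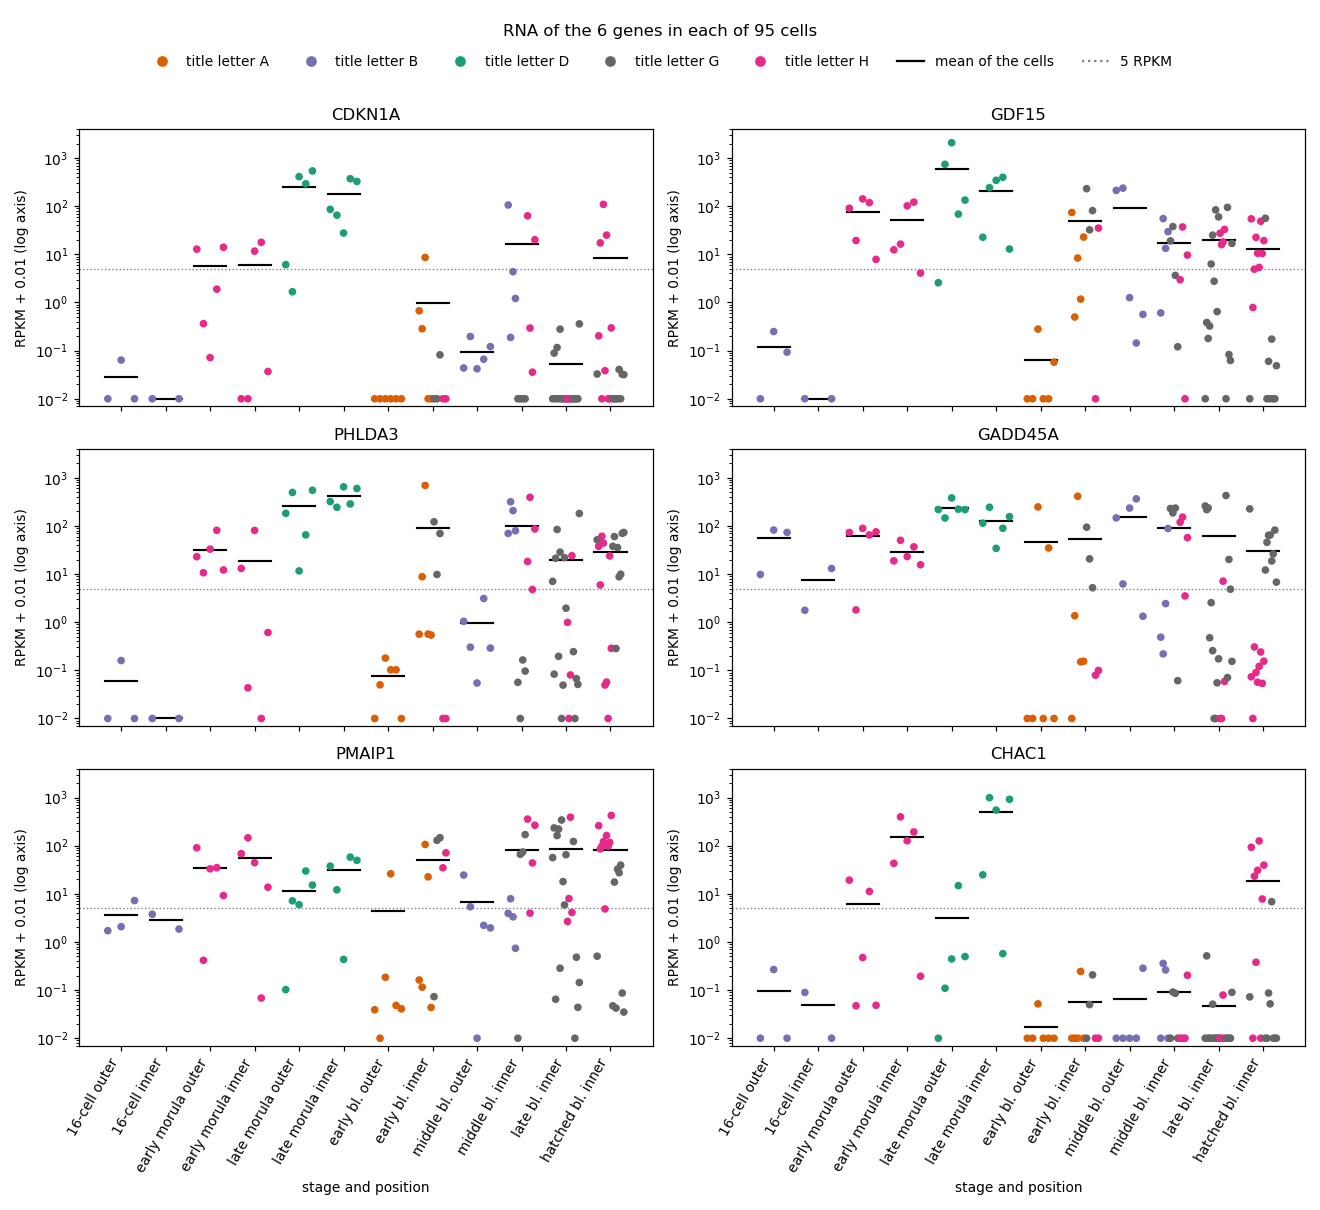
RPKM (log axis, 0.01 added so that cells at 0 can be drawn) of each of the 6 genes in each of the 95 cells, by stage and position, coloured by the letter in the title; black lines are group means and the dotted line is 5 RPKM. CDKN1A and CHAC1 sit at the bottom of the axis in most blastocyst cells, PHLDA3 is under 5 RPKM in all 11 outer blastocyst cells, and PMAIP1 reaches 5 RPKM in some cells of every stage.

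The plot of values by cell shows that a stage mean stands for a mixture: in 5 of the 6 genes (all but PHLDA3) the SD exceeded the mean in each of early, middle, late and hatched blastocyst.

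Early morula cells had higher means than 16-cell cells for 5 of the 6 genes. Of all measured genes 44.7% were higher by 2-fold or more in the same comparison. The log2 ratio was 5.92 for GDF15, 6.22 for CHAC1, 4.68 for PHLDA3, 3.38 for PMAIP1 and 2.76 for CDKN1A, while GADD45A differed by 0.31. GDF15 did not overlap between the stages, as was so for 13.4% of measured genes. The 16-cell cells also stand in the comparison that chose the genes, so nothing is read from this count. Letters B and H stand on the sides, so stage and letter cannot be told apart.

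The comparison of late morula with the 16-cell stage, which chose the genes, gave log2 ratios of 8.58 for GDF15, 8.37 for PHLDA3, 7.88 for CHAC1, 7.73 for CDKN1A, 2.38 for PMAIP1 and 2.31 for GADD45A. All 6 were thus called higher and 0 lower, beside 23.4% of measured genes higher and 32.5% lower. CDKN1A, GDF15 and PHLDA3 did not overlap between the stages, beside 1.4% of measured genes higher without overlap. Without the outer late morula cell D-05, the ratio of GDF15 was 7.69. Late morula cells had a median relative depth of 0.542 against 1.01 at the 16-cell stage, and whether depth had a part in the ratios was not tested.

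Against early morula, 5 genes were higher in late morula and 0 lower. Beside this, 23.7% of measured genes were higher and 49.0% lower by 2-fold or more. The log2 ratio was 4.96 for CDKN1A, 3.69 for PHLDA3, 2.66 for GDF15, 2.00 for GADD45A and 1.65 for CHAC1, and PMAIP1 was lower by just under 2-fold. Ratios of CHAC1 and GDF15 rested on few cells. CHAC1 was at 1.08 without inner D-04 and 2.49 without the early morula inner cell H-03, and its median over cells was lower in late morula. GDF15 was at 1.77 without outer D-05. The late morula cells are those of the comparison that chose the genes, so nothing is read from this count either.

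Early blastocyst cells had lower means than late morula cells for all but PMAIP1, which stood at 0.61 (33.4 ± 50.7 RPKM in 16 early blastocyst cells against 21.5 ± 20.8). The log2 ratio was -7.93 for CHAC1, -7.06 for CDKN1A, -3.69 for GDF15, -2.57 for PHLDA3 and -1.82 for GADD45A, so 5 of the 6 genes were called lower, beside 23.4% of measured genes. A single inner cell, A-07, held 694 RPKM of PHLDA3 and 413 of GADD45A: without it their ratios were -4.50 and -2.71. Letters D and A, G, H stand on the sides, so stage and letter cannot be told apart here either. The late morula cells also stand in the comparison that chose the genes, and nothing is read from this count.

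Letter B holds both 16-cell and middle blastocyst cells, which lets the letter be held fixed. Of the 5 genes measured there, 4 were higher in the 9 middle blastocyst cells than at the 16-cell stage (5 cells), beside 25.6% of measured genes. PHLDA3 had a mean of 75.5 ± 114 against 0.0300 ± 0.0671 RPKM (log2 ratio 6.21) and GDF15 of 61.2 ± 94.8 against 0.0643 ± 0.104 (5.87), and these calls did not end when any single cell was left out. The calls of CDKN1A (3.74) and GADD45A (1.36) each ended without 1 cell. CDKN1A was at 0.81 without inner B-02 and GADD45A at 0.72 without outer B-06. PMAIP1 was at 0.60, and CHAC1 was under 5 RPKM on both sides. The 16-cell cells are those of the comparison that chose the genes, so nothing is read from this count. The summed level of 9 trophectoderm markers had a median of 30093 RPKM in the middle blastocyst cells and 801 at the 16-cell stage, and its part in these ratios was not tested.

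Letter H holds early morula and, later, late and hatched blastocyst cells. Only PMAIP1 was higher in the 13 later cells, with 136 ± 141 against 44.0 ± 46.2 RPKM (log2 ratio 1.61), beside 21.4% of measured genes. GADD45A (-4.82), CHAC1 (-1.64) and GDF15 (-1.56) were lower, 3 of 6 beside 19.6% of measured genes. GADD45A reached 5 RPKM in 1 of the 13 later cells (7.11 in late blastocyst H-14) and in 9 of 10 early morula cells. CHAC1 was at -0.80 without the early morula inner cell H-03. The 4 late blastocyst cells of letter H are called late blastocyst by title and stage label but hatched by source name. Without them CDKN1A was called higher as well (1.38, against 0.89 with them), and the calls of the other genes did not change. CDKN1A rested on hatched cell H-07: with the late blastocyst cells kept and H-07 left out it was at -0.58. It reached 5 RPKM in 3 of the 13 later cells and in 4 of 10 early morula cells.

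In letter G, 2 of the 4 measured genes were lower in 9 hatched cells than in 7 inner early and middle blastocyst cells, beside 19.6% of measured genes. PMAIP1 had 13.0 ± 16.3 against 83.4 ± 67.9 RPKM (log2 ratio -2.59) and GDF15 had 6.27 ± 18.7 against 57.8 ± 81.0 (-3.02). A single hatched cell, G-02, held nearly all of the GDF15 (56.1 RPKM): without it the ratio was -5.83. PHLDA3 (0.41) and GADD45A (-0.85) differed by less than 2-fold. The 9 hatched cells are those with low epiblast markers, and G-14 among them had a high hypoblast sum (6329 RPKM). The part of cell type in these ratios was not tested.

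**Figure D2:**
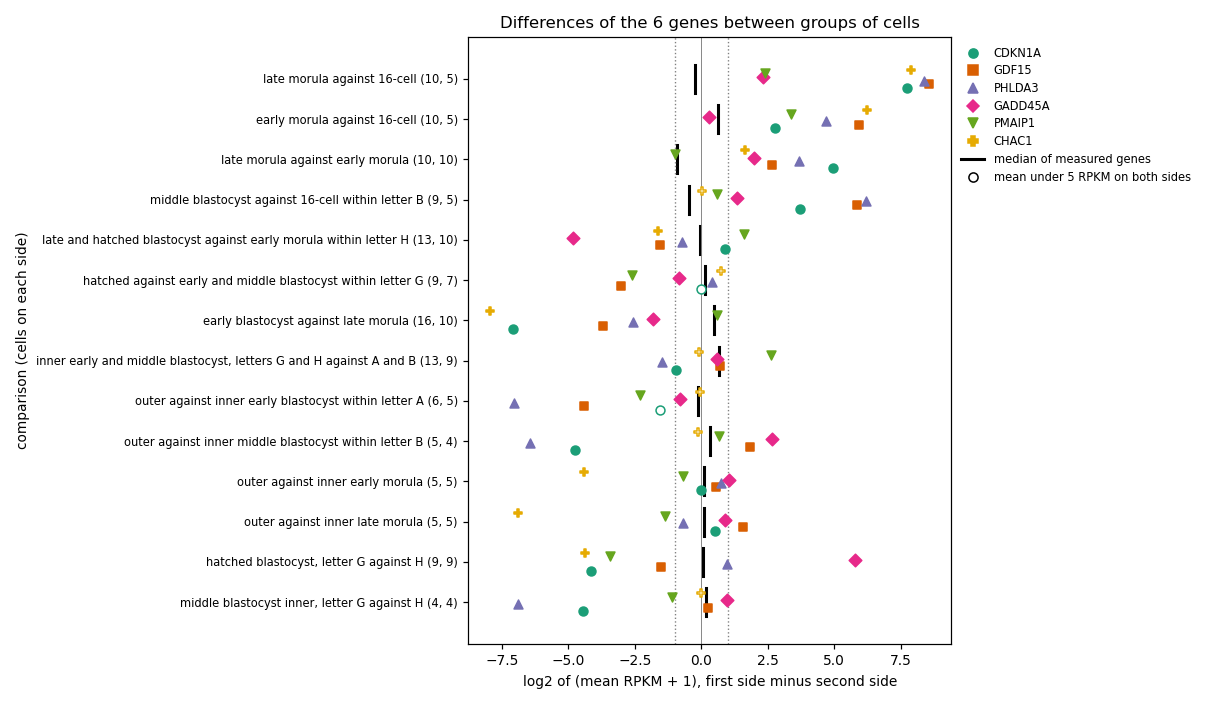
Log2 ratio of group means (each plus 1 RPKM) of the 6 genes in the 14 comparisons; open symbols mark a gene under a mean of 5 RPKM on both sides, the black bar is the median of all measured genes and dotted lines mark 2-fold. All 6 genes lie right of the 2-fold line in late morula against 16-cell, CHAC1 lies far left in both outer against inner morula comparisons, and PHLDA3 in both outer against inner blastocyst comparisons.

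Another scaling, by median-of-ratios size factors, gave other counts over the whole table. All 6 genes stayed higher in late morula than at the 16-cell stage, while all measured genes went from 1241 higher and 1723 lower to 3554 and 680. Against early morula it gave 6 higher and 0 lower (all genes 4029 and 1051, before 1562 and 3234), in early morula against 16-cell 4 and 0 (1517 and 2450, before 3002 and 1681), and in middle blastocyst against 16-cell of letter B 5 and 0 (3778 and 849, before 1408 and 2153). In letter H the later cells had 1 higher and 3 lower (1457 and 684, before 1515 and 1390), and in letter G the hatched cells had 0 and 2 (1159 and 1823, before 1904 and 1423).

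Within the morula, CHAC1 was the gene of the 6 that differed most by position. In early morula the inner cells H-02, H-03, H-04, H-05 and H-08 had 43.0, 395, 126, 192 and 0.184 RPKM of CHAC1. The outer cells H-02 to H-06 had 19.2, 0.0372, 0.464, 11.2 and 0.0382. Inner cells were higher in 4 of 5, and the inner cell H-08 lay within the outer range. The means were 6.19 ± 8.71 outer and 151 ± 155 inner, a log2 ratio of -4.41.

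Late morula repeated the order of the positions. The inner cells D-01, D-04, D-07, D-08 and D-10 had 24.8, 993, 548, 0.561 and 918 RPKM of CHAC1, and the outer cells D-01, D-03, D-05, D-06 and D-10 had 0, 0.0991, 0.432, 14.8 and 0.486. Again 4 inner cells were above every outer cell and 1 lay among them. The means were 3.16 ± 6.49 outer and 497 ± 473 inner, a log2 ratio of -6.90. Leaving out any single cell moved the ratio to between -8.63 (without outer D-06) and -6.49 (without inner D-04) in late morula, and to between -5.28 and -3.67 in early morula.

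PMAIP1 also had the lower mean in outer cells at both stages (log2 ratios -0.68 and -1.37, with overlapping ranges), and the other 4 genes did not. In early morula the PMAIP1 ratio turned to 0.09 without inner H-03. In early morula 1 of 6 genes was higher in outer cells, beside 16.1% of measured genes, and 1 lower, beside 9.12%. The higher gene was GADD45A (log2 ratio 1.05), which dropped under the 2-fold limit without any of 6 cells, for example to 0.87 without outer H-04. In late morula 1 gene was higher in outer cells, beside 31.2% of measured genes, and 2 were lower, beside 26.9%. GDF15 was at 1.56, but at 0.21 without outer D-05, and PMAIP1 had 11.6 ± 11.5 RPKM in outer and 31.5 ± 24.5 in inner cells. Median relative depth was 0.399 in outer and 0.600 in inner late morula cells, and its part in these ratios was not tested. With median-of-ratios size factors GADD45A was no longer called in early morula, which left 0 higher and 1 lower (all genes 332 and 569, before 1061 and 600). In late morula these factors gave 2 higher and 1 lower (all genes 2345 and 1448, before 1517 and 1309).

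The cells that held CHAC1 were compared with other genes of the integrated stress response. TRIB3, a pseudokinase induced by ATF4, had 177, 463 and 182 RPKM in the late morula inner cells D-04, D-07 and D-10, which were also the 3 highest for CHAC1. In the other 7 late morula cells TRIB3 had at most 13.0 RPKM (outer D-10). In early morula it passed 5 RPKM in 1 of 10 cells, inner H-03 (28.2), which was also the highest for CHAC1 at that stage. ATF4 itself, picked here after its values were seen, had 1062, 1263 and 1844 RPKM in the early morula inner cells H-04, H-03 and H-05, the 3 highest for CHAC1, and at most 494 in the other 7. In late morula that order was shared in part: ATF4 was highest in inner D-10 and D-04 (2348 and 1503 RPKM), which held much CHAC1. It also had 1228 RPKM in inner D-08 and 1163 in outer D-10, where CHAC1 was at 0.561 and 0.486, and 1048 in inner D-07, where CHAC1 was at 548.

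DDIT4, an inhibitor of mTORC1 signalling that both p53 and ATF4 can induce, was found in more morula cells than CHAC1. It passed 5 RPKM in all 10 late morula cells, from 10.8 in outer D-05 to 1229 in inner D-07. In the morula as a whole it passed 5 RPKM in 9 of 11 cells with CHAC1 at that level and in 8 of the other 9. DDIT3 (CHOP), a pro-apoptotic transcription factor of the same response, stood in the reverse position in early morula, with 10.2 ± 9.73 RPKM in outer and 0.307 ± 0.687 in inner cells (log2 ratio 3.10).

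Of the listed genes of the integrated stress response, 15 were measured in the late morula position comparison: 8 were lower and 1 higher in outer cells, beside 26.9% and 31.2% of all measured genes, with a median log2 ratio of -1.23 beside 0.11 for all measured genes. In early morula 16 were measured, 5 lower and 1 higher, beside 9.12% and 16.1%, with a median of -0.59 beside 0.10. In late morula TRIB3 stood at -5.41 (2.90 ± 5.63 outer, 165 ± 189 RPKM inner), and in early morula HERPUD1, TRIB3 and ASNS stood at -2.81, -2.70 and -2.58. ASNS, which makes asparagine, was at or near 0 in late morula at both positions (0.465 ± 0.649 RPKM over 10 cells). Markers of cumulus cells, fibroblasts and blood summed to at most 0.256, 0.784 and 0.245 RPKM in any late morula cell.

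In the blastocyst, position separated PHLDA3 within letters A and B, the only letters with outer cells. Within letter A, the 6 outer early blastocyst cells had 0 to 0.170 RPKM with a median of 0.0663, and the inner cells A-03, A-05, A-07, A-08 and A-10 had 0.555, 8.78, 694, 0.557 and 0.531. Within letter B, the outer middle blastocyst cells B-01, B-02, B-03, B-06 and B-07 had 1.03, 0.293, 0.0446, 3.10 and 0.280, and the inner cells B-02, B-03, B-05 and B-06 had 69.8, 317, 208 and 79.5. Outer and inner cells did not overlap at either stage, as was so for 0.542% (early) and 3.28% (middle) of measured genes, lower in outer cells. In letter A the inner cells A-03, A-08 and A-10 were themselves far under 5 RPKM, at 3, 14 and 13 reads. Outer A-06 had 4 reads, at a relative depth of 0.951 against 0.218 for inner A-03. By read count the positions thus overlapped in letter A. Inner cells of other letters could be as low as outer ones. Middle blastocyst cells of letter G had 0 to 0.154, and early blastocyst H-03 and H-05 had 0. The difference by position was known when the genes were chosen, so these values describe it and are no independent support.

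The size of the PHLDA3 difference by position rested on a single cell in early blastocyst and not in middle blastocyst. The log2 ratio of PHLDA3 was -7.06 in early blastocyst and -1.76 without inner A-07. It was -6.44 in middle blastocyst, and between -6.91 and -5.94 when any single cell was left out. None of the 11 outer blastocyst cells reached 5 RPKM of PHLDA3, which allows a share of up to 27.3%.

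The other genes split by stage. In early blastocyst 3 of the 4 measured genes were lower in outer cells, beside 32.7% of measured genes. GDF15 had 0 to 0.270 RPKM in the 6 outer cells and 73.9, 0.489, 8.38, 1.16 and 22.8 in inner A-03, A-05, A-07, A-08 and A-10. These did not overlap, beside 0.542% of measured genes lower in outer cells without overlap. The gap was one of few reads, 5 in outer A-06 and 9 in inner A-05. The log2 ratio was -4.41, and -3.13 without A-03. PMAIP1 stood at -2.31, but at -0.32 without inner A-07, the cell that also held 106 RPKM of PMAIP1 and 8.61 of CDKN1A. GADD45A stood at -0.80.

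In middle blastocyst 2 genes were higher in outer cells, beside 36.3% of measured genes, and 2 lower, beside 24.7%. GADD45A had 147, 6.21, 235, 365 and 1.32 RPKM in outer B-01, B-02, B-03, B-06 and B-07 and 0.479, 0.209, 2.42 and 88.2 in inner B-02, B-03, B-05 and B-06. Most outer cells were above most inner cells, but the ranges overlapped (log2 ratio 2.67, and 6.22 without inner B-06). GDF15 was high in outer B-01 and B-02 (213 and 237) and at most 1.25 in the other 3, so its ratio of 1.83 turned to -3.32 with medians over cells and was at 1.09 without outer B-02. CDKN1A stood at -4.74, and at -1.43 without inner B-02.

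Trophectoderm and epiblast markers moved with position only in part. In letter A early blastocyst the summed level of 9 trophectoderm markers had a range of 10719 to 30514 RPKM in outer cells and 2257 to 13754 in inner cells. The sum of 10 epiblast markers overlapped there, with 1545 to 6101 outer and 2388 to 5814 inner. In letter B middle blastocyst the trophectoderm sum overlapped fully (5077 to 63683 outer, 25864 to 41070 inner). The sum of 10 epiblast markers had 1172 to 5000 outer and 4292 to 12800 inner. GATA3 was at 258 ± 265 RPKM in outer and 29.3 ± 19.9 in inner cells of letter B. The part of cell type in the ratios of the 6 genes was not tested.

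Inner blastocyst cells also differed between letters. Over inner early and middle blastocyst cells, PMAIP1 was the 1 gene higher in letters G and H than in A and B (105 ± 108 RPKM in 13 cells against 16.0 ± 34.4 in 9, log2 ratio 2.63), beside 45.3% of measured genes. PHLDA3 was the 1 gene lower (-1.48), beside 24.8%, and stood at -0.65 without inner A-07. The summed level of 9 trophectoderm markers had a median of 688 RPKM (60.2 to 3037) in letters G and H and of 13754 (2257 to 41070) in A and B, and its part in these ratios was not tested. With median-of-ratios size factors 1 of the 6 genes was higher and 2 lower (all genes 1660 and 3704, before 3037 and 1664).

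Letters G and H were both present in inner middle blastocyst, with 4 cells each. PHLDA3 had 0.0465, 0, 0.154 and 0.0866 RPKM in G-02, G-03, G-04 and G-10 and 18.2, 393, 4.77 and 86.6 in H-03, H-05, H-09 and H-10. CDKN1A was at 0 in all 4 cells of letter G and had 63.0, 0.284, 0.0257 and 20.1 RPKM in the same cells of letter H. Neither gene overlapped between the letters, beside 3.25% of measured genes lower in letter G without overlap, although for CDKN1A 2 of the letter H cells were under 1 RPKM.

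PMAIP1 was called lower in letter G as well (log2 ratio -1.10, and -0.43 without H-03), which made 3 of 5 measured genes lower beside 25.6% of all. The ratio of PHLDA3 was -6.89, and between -7.28 and -5.13 when any single cell was left out. GADD45A was present in both letters (163 ± 111 and 83.2 ± 66.3 RPKM). The hypoblast markers GATA4 and SOX17 had means of 122 ± 18.0 and 69.4 ± 57.3 in letter G and were at 0 in all 4 cells of letter H, and the summed level of 9 hypoblast markers had a range of 516 to 4704 RPKM against 50.1 to 172. With median-of-ratios size factors the 6 genes had 0 higher and 3 lower (all genes 1693 and 2060, before 2284 and 1714). The part of cell type in these ratios was not tested.

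Of the listed p53 pathway genes, 19 were measured between letters G and H of middle blastocyst: 13 were lower and 1 higher in letter G, beside 25.6% and 34.2% of all measured genes, with a median log2 ratio of -1.98 beside 0.20 for all measured genes. TP53I3, a quinone oxidoreductase induced by p53, had 0.0556 ± 0.0446 RPKM in letter G and 86.0 ± 53.3 in letter H (-6.37). DDB2, a DNA damage recognition protein, had 0.0181 ± 0.0210 and 79.4 ± 156. With that SD, a single letter H cell held nearly all of the DDB2.

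In hatched blastocyst, GADD45A split the inner cells by letter, 9 with G and 9 with H. The lowest, median and highest values were 6.79, 45.7 and 226 RPKM in letter G and 0, 0.0804 and 0.296 in letter H. The letters did not overlap, beside 0.831% of measured genes higher in letter G without overlap. The log2 ratio was 5.79, and between 5.20 and 5.94 when any single cell was left out.

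PMAIP1, CHAC1, CDKN1A and GDF15 stood on the other side in hatched blastocyst: 4 of 6 genes were lower in letter G, beside 20.9% of measured genes, and GADD45A was the 1 gene higher, beside 24.1%. PMAIP1 had 0.0249, 0.495 and 39.4 RPKM (lowest, median, highest) in letter G and 4.84, 117 and 423 in letter H. CHAC1 had 0, 0 and 6.84 in letter G and 0, 23.2 and 125 in letter H. Both overlapped in range (log2 ratios -3.45 and -4.36). CDKN1A (-4.15) rested on 3 of 9 letter H cells and stood at -2.65 without H-07, and GDF15 (-1.51) stood at -4.32 without G-02. PHLDA3 stood at 0.97. With the 9 late blastocyst cells whose source name says hatched counted as hatched, GDF15 was at -0.75 and no longer called, and PHLDA3 was called higher in letter G (1.26).

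These 2 sets of hatched cells carried different cell type markers. The sum of 10 epiblast markers had a median of 3.86 RPKM in letter G, with a highest value of 778, and ranged from 5923 to 8571 in letter H. The sum of 9 trophectoderm markers was 914 to 20982 and 627 to 2018. The sum of 9 hypoblast markers was 6329 RPKM in G-14. It was 36.2 to 144 in the other cells of letter G and 42.5 to 152 in letter H. G-14 also had the highest epiblast sum, the lowest trophectoderm sum and the highest GADD45A (226 RPKM) of letter G. By these sums the cells of letter G were not uniform. GATA2 and PGF had means of 446 ± 245 and 123 ± 52.6 in letter G and 1.52 ± 4.39 and 0.0502 ± 0.0630 in letter H. The fibroblast list was 0 to 1.93 RPKM in letter G and 88.0 to 417 in letter H through COL1A2, while COL3A1 and LUM were at 0 in all 18 cells. Within hatched blastocyst letter and cell type cannot be told apart. In late blastocyst, letter G held cells of several kinds by these sums. G-02, G-06, G-09, G-14, G-18, G-20 and G-23 had epiblast sums of 7127 RPKM or more and at most 2.54 RPKM of GADD45A. G-11, G-12 and G-17 had hypoblast sums of 4192 RPKM or more and 218 to 259 of GADD45A. G-03, G-04, G-16, G-22 and G-27, with epiblast sums of at most 95.7, had GADD45A at 428, 0.0610, 20.2, 4.84 and 0.144. The part of cell type in the ratios of the 6 genes was not tested.

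The cells with CHAC1 in hatched blastocyst were set beside other genes of the integrated stress response. Of these 7 cells 6 were of letter H and 1 of letter G, so CHAC1 and letter largely coincide here. All 7 hatched cells with CHAC1 at 5 RPKM or more had DDIT4 at that level, against 5 of the other 11. TRIB3 reached it in 6 of the 7 and in 7 of the other 11, and DDIT3 in 0 of the 7 and 4 of the other 11. ASNS reached it in 6 of the 7 and 9 of the other 11, and ATF4 in 7 of the 7 and 11 of the other 11. Between the letters, ASNS stood at 18.2 ± 16.1 RPKM in letter G and 294 ± 145 in letter H (log2 ratio -3.94), and DDIT3 at 15.1 ± 24.6 and 0.0763 ± 0.147 (3.90).

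Presence of several of the 6 genes in the same cell was counted next. A cell was counted as holding a gene at 5 RPKM or more. Of the 95 cells, 27 held 4 or more of the 6 genes (28.4%, exact Clopper-Pearson 95% interval 19.6 to 38.6, counting error only). These were 8 of 10 early morula cells (80%, 44.4 to 97.5), 9 of 10 late morula cells (90%, 55.5 to 99.7), 3 of 16 early, 2 of 17 middle and 5 of 18 hatched blastocyst cells. No 16-cell cell (of 5) and no late blastocyst cell (of 19) did. Since late morula chose the genes, its share is a description only.

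All 6 genes were held by 6 cells, every one a morula cell: early morula outer H-02 and inner H-04, and late morula outer D-06 and inner D-01, D-04 and D-10. None of the 6 genes was held by another 6 cells, 3 of them outer early blastocyst cells of letter A. The median number of genes held was 1 at the 16-cell stage, 4.5 in early and 5 in late morula, 1 in early, 2 in middle and late, and 3 in hatched blastocyst.

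**Figure D3:**
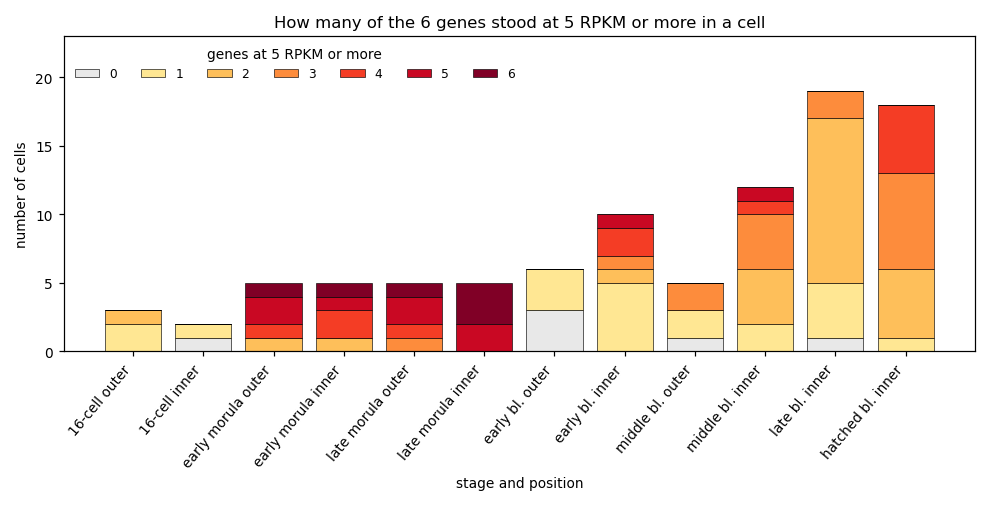
Number of cells that held 0 to 6 of the 6 genes at 5 RPKM or more, as stacked bars for each group of stage and position. Cells with 4 or more fill 17 of the 20 morula cells and 10 of the 70 blastocyst cells, and no outer blastocyst cell has more than 3.

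The bars of genes per cell do not show the letters, which were counted apart. Of letter H cells 14 of 29 held 4 or more genes, of letter G 3 of 31, of letter A 1 of 11 and of letter B 0 of 14, while letter D holds only late morula. Of the 14 letter H cells 8 were early morula cells, a stage that no other letter holds. Within hatched blastocyst it was 4 of 9 cells of letter H and 1 of 9 of letter G. Across cells the number of genes held had a Spearman's rho of 0.27 with the number of genes at 1 RPKM or more (95 cells) and of -0.14 with relative depth. Over the 70 blastocyst cells these were 0.41 and 0.00. Each point is a library of its own, and both measures come from the same library.

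The most common set was GADD45A alone, in 9 cells. The 5 genes without CHAC1 were held by 6 cells, PMAIP1 alone by 6 and GDF15 with PMAIP1 by 6. Of the 20 cells with CDKN1A, 18 also held PHLDA3, that is 18 of the 49 cells with PHLDA3. CDKN1A and CHAC1 shared 9 cells, 9 of 20 and 9 of 18.

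**Figure D4:**
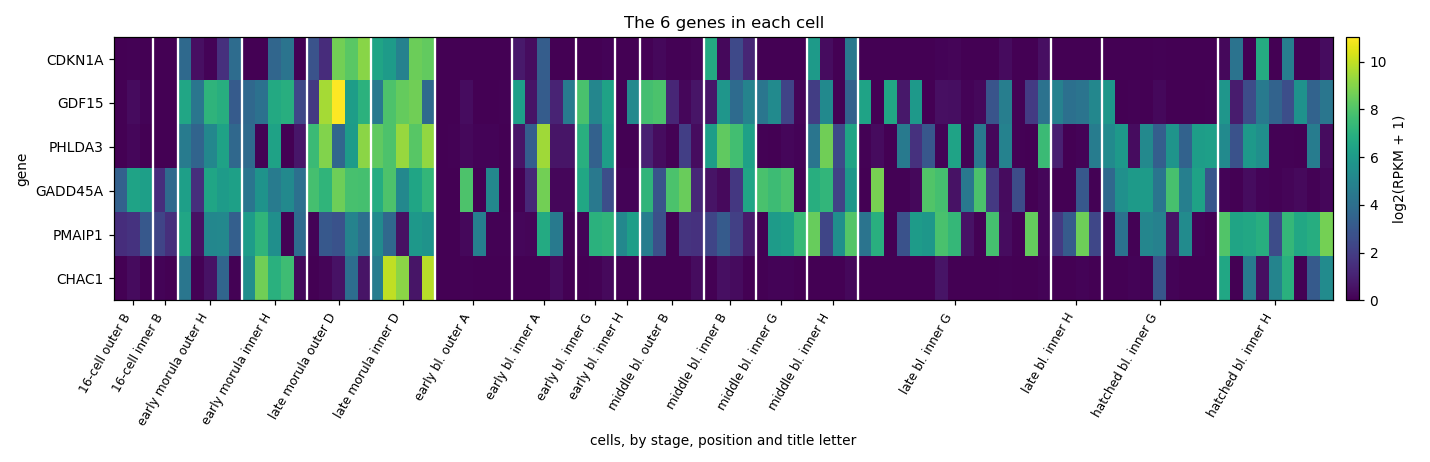
Log2(RPKM + 1) of the 6 genes in each of the 95 cells, ordered by stage, position and letter. The late morula block is mostly filled for 5 genes and for CHAC1 in 4 of its 5 inner cells, and 10 of the 70 blastocyst cells hold 4 or more of the genes at 5 RPKM.

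The map of all cells shows how far the genes went together outside the morula. Over the 95 cells Spearman's rho was highest for CDKN1A with PHLDA3 (0.60), then CDKN1A with CHAC1 (0.48) and CDKN1A with GDF15 (0.44), and lowest for GADD45A with PMAIP1 (-0.02), of 15 pairs. With each gene centred within its group of stage, position and letter, all 15 lay between -0.08 and 0.17, and CDKN1A with PHLDA3 was at 0.09. Among the 70 blastocyst cells CDKN1A with PHLDA3 was at 0.49, and within the 10 late morula cells PHLDA3 with GADD45A was at -0.73. The points share their libraries and most of these correlations are weak, so they describe these cells only.

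Other genes of the p53 pathway were called in both directions. Of 35 listed genes 31 were in the table. From 16-cell to early morula 20 were measured, 9 higher and 6 lower, beside 44.7% and 25.1% of all measured genes. From early to late morula 19 were measured, 7 higher and 7 lower, beside 23.7% and 49.0%, with a median log2 ratio of 0.15 beside -0.92 for all measured genes. Late morula against the 16-cell stage gave 8 higher and 2 lower of 15, beside 23.4% and 32.5%. Late morula to early blastocyst gave 9 higher and 8 lower of 20, beside 41.9% and 23.4%.

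Some p53 targets, like PMAIP1, had a lower mean in late than in early morula. RPS27L, a ribosomal protein paralogue induced by p53, had 124 ± 46.6 RPKM in early and 1.22 ± 1.51 in late morula (log2 ratio -5.82), and 85.6 ± 162 in early blastocyst. TP53I3 had 24.7 ± 43.5, 0.0831 ± 0.138 and 168 ± 171 RPKM in early morula, late morula and early blastocyst. BTG2, an antiproliferative gene, was at 11.6 ± 26.0 RPKM at the 16-cell stage, 0.00839 ± 0.0265 in early and 24.3 ± 38.2 in late morula. PLK3, a kinase of the stress response, was highest at the 16-cell stage (192 ± 103 RPKM) and at 18.0 ± 30.2 in late morula.

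**Figure D5:**
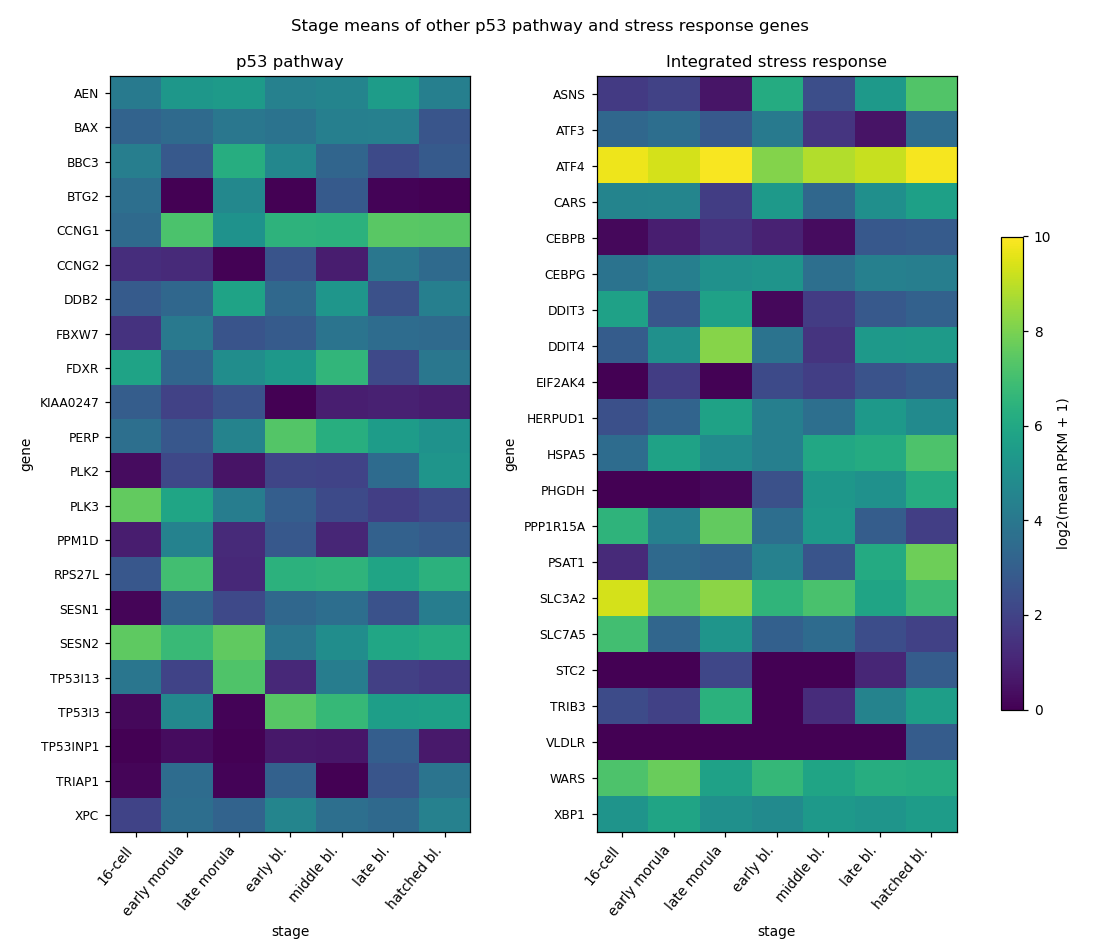
Stage means as log2(RPKM + 1) of listed p53 pathway and integrated stress response genes whose highest stage mean is at least 5 RPKM. RPS27L and TP53I3 are at 1.22 RPKM or less in late morula between higher stages on each side, and DDIT4 and TRIB3 are highest in late morula.

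The map of stage means includes the integrated stress response. Of 27 listed genes 26 were in the table. From early to late morula 15 were measured, 6 higher and 2 lower, beside 23.7% and 49.0% of all measured genes. From late morula to early blastocyst 16 were measured, 4 higher and 8 lower, beside 41.9% and 23.4%. TRIB3 went from 83.8 ± 152 to 0.0263 ± 0.0651 RPKM, beside CHAC1, while ASNS was at 0.465 ± 0.649 and 69.8 ± 109. DDIT4 had 6.61 ± 14.1 RPKM at the 16-cell stage, 31.1 ± 48.2 in early and 291 ± 348 in late morula.

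The remaining lists were shorter. Of 11 BCL2 family genes in the table, 8 were measured between the 16-cell stage and late morula, 1 higher and 4 lower, beside 23.4% and 32.5% of all measured genes. BCL2L11 (BIM), which like PMAIP1 is a BH3-only protein, had 58.7 ± 46.9 RPKM at the 16-cell stage and 1.08 ± 3.16 in late morula. BIK, another of that class, had 2923 ± 441 at the 16-cell stage and 10.0 ± 21.4 in middle blastocyst cells of letter B (log2 ratio -8.05). Of 9 heat shock and oxidative stress genes in the table, 5 of 7 measured were higher in early morula than at the 16-cell stage, beside 44.7% of all measured genes, and 5 of 7 lower in late than in early morula, beside 49.0%. GADD45B and GADD45G, PHLDA1 and PHLDA2, and the other CDK inhibitors gave 1, 0 and 1 measured genes between the 16-cell stage and late morula, of which 1, of the GADD45 family, was lower.

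The genes whose levels over the 95 cells were most like those of each gene were ranked by Spearman's rho among the 8023 genes at 5 RPKM in at least 10 cells. Of the first 3 for each, those named here were, for CDKN1A, PHLDA3 (0.60), CTAG1A (0.59) and B4GALT2 (0.58). For PHLDA3 they were CDKN1A (0.60), IL4R (0.50) and APOBR (0.49). For CHAC1 they were PRAMEF19 (0.55), DDIT4 (0.54) and CTAG1A (0.54), for GDF15 SOX15 (0.50), CXorf56 (0.48) and ATG3 (0.45), for GADD45A DRAM1 (0.54) and FAM177A1 (0.46), and for PMAIP1 ETFA (0.53) and IARS (0.51). DRAM1 is an autophagy gene known as a p53 target.

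Part of this likeness lay between the groups. Centred within stage, position and letter, DRAM1 with GADD45A was at 0.39, SOX15 with GDF15 at 0.32 and DDIT4 with CHAC1 at 0.29, while PRAMEF19 with CHAC1 was at -0.13. B4GALT2 with CDKN1A was at 0.06 and APOBR with PHLDA3 at 0.05. CTAG1A and PRAMEF19 belong to families of near-identical copies, so reads may have been split between copies and their values are uncertain. By mean rho over the 6 genes the first 5 were APOBR (0.38), B4GALT2 (0.35), SPATA24 (0.33), FAM151A (0.32) and TMEM180 (0.31). Centred in the same way, their mean rho was -0.02, 0.02, 0.09, 0.06 and 0.04, so little of this likeness lay within groups. APOBR had its highest stage mean in late morula (38.5 RPKM, against 3.13 or less elsewhere).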

How the data were processed

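RNA of single cells from macaque embryos was sequenced, 1 library per cell (95 columns, all matched to cells by title). Per the labels' protocols, cells were picked singly under a microscope after a dye had marked outer cells, and the poly(A)-tailed cDNA was amplified by PCR. The values are RPKM as deposited by the authors. The unit is not named with them and was inferred from the values. FastQC, TopHat2 2.1.0, HTSeq and DESeq2 are named without roles per the submitters' processing notes. The genome build and annotation are not given in the sources used here.

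Here, group means, SDs, log2 ratios of means plus 1 RPKM, counts of cells at 5 RPKM or more and Spearman correlations were computed with Python 3.11.15, numpy 2.4.6, pandas 2.3.3, scipy 1.17.1 and matplotlib 3.10.9. Relative depth came from the step that 1 read makes in low values. No doublet caller and no filter on cells was used. The scripts were tested on simulated data. Without a label for embryo, female or culture, cells are not replicates, so no test between groups was run. Shares above 0 have exact Clopper-Pearson 95% intervals and a count of 0 has a limit of 3 counts of the total. Both cover counting error only, since PCR reads without molecular identifiers are not independent molecules.

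The genes and all lists were chosen with earlier results of these data known. The 6 genes are named in every comparison. From the lists (p53 pathway, integrated stress response, GADD45 family, PHLDA family, CDK inhibitors, BCL2 family, heat shock and oxidative stress; 86 of 96 genes in the table) counts are given and the 3 called genes of largest ratio in each direction could be named. The 3 genes of highest rho with each gene and the 5 of highest mean rho are named, among genes at 5 RPKM in at least 10 cells. A few of the genes these rules give are not reported here, though list counts include them. SUSD6 was matched as KIAA0247 by a synonym. MDM2, MDM4, TNFRSF10B, TIGAR, MTHFD2, CDKN1C, BCL2, HSPA1B, HSP90AA1, HMOX1 and the markers TEAD3, GATA6 and PTPRC were not analysed here. Of the late blastocyst cells, 9 (5 of letter G, all 4 of letter H) are late blastocyst by title and stage label but hatched by source name, and were kept as late blastocyst. Alternatives were pseudocounts, minimum means, folds, detection levels, medians and mean logs over cells, depth-weighted means, 2 scalings, the 9 cells left out or moved, and each cell left out in turn.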

Additional observations from a re-analysis of the deposited data

Results flagged for a closer look

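The highest and lowest cell was set against its neighbours in 42 sets of values. A set was 1 of the 6 genes in 5 to 10 cells of the same stage and position. In 7 sets a cell lay far from the others. The limit used flags about 1 set in 20 where values are normally distributed. These values are skewed, with many at 0, so that rate cannot be applied here. The inner early blastocyst cells also mix letters A, G and H. In early morula the outer cell H-03 had 1.79 RPKM of GADD45A, below the next at 65.0. In late morula the outer cell D-06 had 14.8 RPKM of CHAC1, above the next at 0.486. Of the 10 inner early blastocyst cells, A-07 had 8.61 RPKM of CDKN1A, above the next at 0.662. Among the 6 outer early blastocyst cells, A-08 had 26.0 RPKM of PMAIP1 (next 0.174), and A-06 had 0.270 of GDF15 (next 0.0477) and 0.0416 of CHAC1 (all others at 0). The outer middle blastocyst cell B-07 had 0.275 RPKM of CHAC1 (all others at 0). The last 3 values lie far under 5 RPKM, at the level of few reads.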

How the results depend on the processing

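No paired analysis was possible because the results come from no test. Counts of the 6 genes called, and of cells with 4 or more of them, moved by over 1.5 times in 15 trials of another setting and stayed within that in 152, and in 7 and 210 with 1 cell left out. With medians over cells the count went from 4 to 1 in middle blastocyst against 16-cell, from 2 to 4 in hatched against early and middle blastocyst of letter G, from 3 to 1 in outer against inner early blastocyst and from 2 to 4 in outer against inner early morula. In early morula it was also 1 with a pseudocount of 10, with a depth-weighted mean, with median-of-ratios size factors and at a fold of 4. At a fold of 4 it was 1 in late and hatched blastocyst against early morula (4 reported), in inner blastocyst letters G and H against A and B (2) and in outer against inner late morula (3). In hatched blastocyst letters G against H, a minimum mean of 20 RPKM left 3 of 5. Cells with 4 or more genes numbered 27, and 14 at 20 RPKM, 44 for 3 or more and 15 for 5 or more genes. Called ratios changed sign in 6 trials. With medians CHAC1 was at -0.90 in late against early morula, GADD45A at -0.96 (and -0.18 with mean logs) in middle blastocyst against 16-cell, GDF15 at -3.32 (and -0.29 with mean logs) in outer against inner middle blastocyst and at -0.85 in outer against inner late morula. With 1 cell left out no call turned, and counts ranged from 1 to 3 in outer against inner early morula, 2 to 5 in late morula, 2 to 4 in letters G and H against A and B and 2 to 5 in middle blastocyst letters G against H. Median-of-ratios factors moved the median of all genes from -0.24 to 1.47 in late morula against 16-cell, where the 6 genes stayed higher. The cause of these changes was not tested. Few cells per group limit every value, and the part of depth in the late morula values was not tested.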
